A study of Oryza sativa Japonica Group with 6 samples.

Results

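RCc3 and RCc2 are small proteins named from rice root cDNAs whose transcripts were described as root-specific. In this material they are transcripts named for another organ than the one dissected. They were taken as the cDNA probes AK062381 (described as rice root-specific RCc3 mRNA) and AK063090 (described as rice root-specific RCc2 mRNA), which are 2 of 21495 non-control probes on the array. Other probes carry the same descriptions, and these 2 were chosen with earlier results of these data known. The coleoptile, a hollow sheath around the young shoot of grasses, grows quickly in submerged rice while the root grows little. Proteins of the RCc type carry a hydrophobic domain with a conserved pattern of cysteines, related to that of proline-rich and lipid transfer proteins of plant cell walls. In rice the RCc3 promoter is widely used to drive transgenes in roots.

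Coleoptiles of 2 genotypes were compared, wild type and the *rad* mutant, which is named for reduced ADH (alcohol dehydrogenase) activity; both were of the cultivar Kinmaze and both had germinated under submergence, with 15 seeds to a bottle of 1 L deionized water. Tissue was collected by laser microdissection from frozen sections of 8 µm after fixation in ethanol and acetic acid, and its RNA was amplified into labelled cRNA. Each of 6 two-colour arrays carried both genotypes, as 3 replicates measured in both dye orientations. The lesion in *rad*, the age of the seedlings and any pooling of RNA are not given in the labels used here, and neither is whether replicates came from separate cultures. The p-values therefore cover no more than the spread among these arrays, part or all of which could be technical. No probe description contained the word coleoptile, xylem, tracheary or phloem, so the labelled tissue was checked only against markers of other tissues. In such dissected material, fewer cells of a type and less RNA per cell cannot be told apart.

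The array carried 9 probes with the wording root-specific, of which 4 were described as RCc3 and 5 as RCc2. The probes stand for different cDNAs, and cDNAs that share a description may come from 1 gene or from several. Of the 9, 6 were tested, 2 (AK062848 and AK062911) had an outlier spot on 1 array each and were left out, and 1 (AK062654) was not well above background in either genotype on any array. Both RCc3 AK062381 and RCc2 AK063090 passed every filter and were well above background in both genotypes on all 6 arrays.

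The RCc3 cDNA AK062381 was lower in *rad* than in wild type on every array. With wild type in Cy5 its raw mean intensity in wild type was 8129, 7539 and 7881 in replicates 1, 2 and 3, and with *rad* in Cy5 it was 3371, 2891 and 4353 in *rad*. With wild type in Cy3 it read 3469, 2917 and 3091 in wild type, and with *rad* in Cy3 it read 1006, 961 and 1689.5 in *rad*. In either dye the 2 genotypes did not overlap, and the *rad* value of replicate 3 was the highest of the 3 *rad* values. These spots stood 61.8 to 159 times over their local background in wild type and 20.9 to 83.7 times in *rad*.

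As log2 ratios of *rad* over wild type, RCc3 AK062381 read -1.47 and -1.52 on the arrays of replicate 1, -1.31 and -1.55 on those of replicate 2 and -0.70 and -0.58 on those of replicate 3. The averages of the dye-swap pairs were -1.50, -1.43 and -0.64. The arrays of a pair lay within 0.23 of each other, whereas replicate 3 stood apart from the other two. The mean was -1.19 ± 0.47 (SD, n = 3), with a 95% confidence interval of -1.71 to -0.67, or 2.28-fold lower in *rad* (limma, Benjamini-Hochberg adjusted p = 0.0191, lower on 6 of 6 arrays). Over all 19947 probes tested 10.1% were called lower by the same test and 14.6% higher, and 17.9% were lower on all 6 arrays. A ratio this low or lower was found for 0.582% of the probes tested. The size of the fall differed between replicates, from 2.82-fold and 2.69-fold in replicates 1 and 2 to 1.56-fold in replicate 3. The call was lost without replicate 1 (-1.04, adjusted p = 0.107) and without replicate 2 (-1.07, adjusted p = 0.0962).

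The RCc2 cDNA AK063090 was also lower in *rad*, by a small amount and from a dim signal. With wild type in Cy5 its raw mean intensity in wild type was 178, 221 and 240.2 in replicates 1, 2 and 3, and with *rad* in Cy5 it was 187, 165 and 178 in *rad*. With wild type in Cy3 it read 134, 127 and 150.5 in wild type, and with *rad* in Cy3 it read 91.9, 106 and 128 in *rad*. The raw ranges of the genotypes overlapped in either dye, and the normalized ratio was below 0 on all 6 arrays. The spots were only 2.77 to 4.62 times over the local background in wild type and 2.19 to 3.59 times in *rad*.

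The log2 ratios of RCc2 AK063090 were -0.39 and -0.15 in replicate 1, -0.35 and -0.42 in replicate 2 and -0.35 and -0.20 in replicate 3, and the pair averages were -0.27, -0.38 and -0.28. No replicate stood apart. The mean was -0.31 ± 0.064 (SD, n = 3), with a 95% confidence interval of -0.42 to -0.20, or 1.24-fold lower in *rad* (limma adjusted p = 0.0132). A ratio this low or lower was found for 7.28% of the probes tested. For a probe so near the background the size depends on the background correction: it was -0.51 with no offset (adjusted p = 0.0109) and -0.56 from the signals as processed by the scanner software (adjusted p = 0.0121). The call was lost without replicate 1 (adjusted p = 0.0651), without replicate 2 (0.0884) and on the arrays with *rad* in Cy3 alone (0.0566), on which 10.9% of all probes were called lower.

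**Figure D1:**
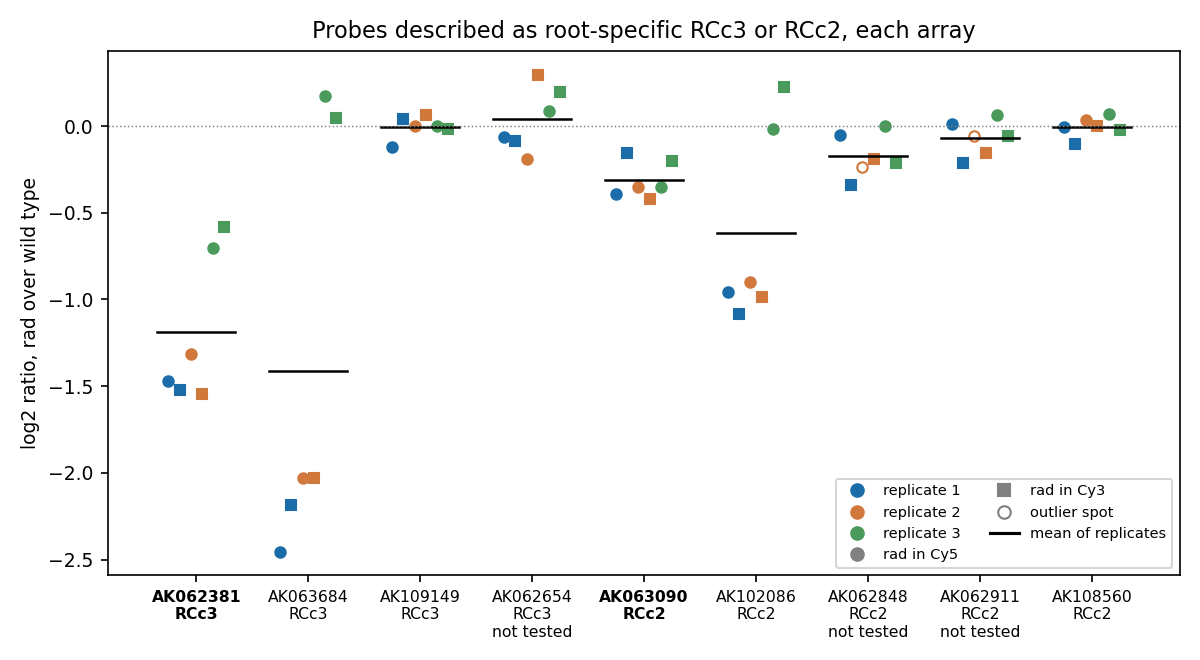
Log2 ratio of *rad* over wild type (y axis) on each array for the 9 probes described as root-specific RCc3 or RCc2, with AK062381 and AK063090 in bold; colours mark replicates, circles and squares the dye that carried *rad*, open circles outlier spots, and lines the mean of 3 replicates. AK062381 lies below 0 on all 6 arrays, and AK063684 and AK102086 lie below 0 in replicates 1 and 2 and near 0 in replicate 3.

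The ratios of the 2 cDNAs were compared within each replicate, since they were read on the same arrays. The log2 ratio of RCc3 AK062381 minus that of RCc2 AK063090 was -1.22, -1.05 and -0.37 in replicates 1, 2 and 3 (mean -0.88 ± 0.45, SD, n = 3). The direction was the same in 3 of 3 replicates, but an exact sign-flip permutation test gave p = 0.25 (two-sided), which is the smallest p that 3 replicates allow. With the scanner's processed signals the mean difference was -0.66.

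Levels of each genotype showed in which one the replicates differed. The levels are log2 intensities per channel, after loess within arrays and quantile normalization of the average intensities between arrays. RCc3 AK062381 stood at 12.37, 12.13 and 12.16 in wild type and at 10.88, 10.69 and 11.51 in *rad* in replicates 1, 2 and 3, or 12.22 ± 0.13 against 11.03 ± 0.43 (SD, n = 3). The genotypes did not overlap. The wild-type values lay close together, and the spread of the ratio came mainly with the *rad* value of replicate 3. RCc2 AK063090 stood at 7.31, 7.22 and 7.30 in wild type and at 7.04, 6.84 and 7.02 in *rad*, again without overlap, and here replicate 2 held the lowest value of either genotype.

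The remaining RCc3 cDNAs differed from one another. The bright probe AK063684, also described as RCc3, had log2 ratios of -2.32 and -2.03 in replicates 1 and 2 but 0.11 in replicate 3, or 4.99-fold and 4.08-fold lower in *rad* in the first 2 of these. Its mean of -1.41 ± 1.33 was not called (limma adjusted p = 0.132, 95% confidence interval -2.84 to 0.011). Its *rad* level was 13.23, 13.37 and 15.23 in replicates 1, 2 and 3, against 15.55, 15.40 and 15.12 in wild type. The probe was saturated in wild type on the 3 arrays with wild type in Cy5, so those ratios may understate a fall. They were -2.18, -2.03 and 0.044 in replicates 1, 2 and 3. On the 3 arrays without saturation the probe read -2.45, -2.03 and 0.17. AK109149, the remaining RCc3 probe that was tested, read -0.040, 0.032 and -0.0098 in the 3 replicates (mean -0.0059 ± 0.036, adjusted p = 0.920).

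Among the RCc2 cDNAs, AK102086 repeated the pattern of AK063684, with -1.02 and -0.94 in replicates 1 and 2 and 0.10 in replicate 3 (mean -0.62 ± 0.63, adjusted p = 0.156). It was never saturated, and its level was 14.34, 14.28 and 13.98 in wild type against 13.32, 13.34 and 14.08 in *rad*. The *rad* value of replicate 3 was thus above the wild-type value of the same replicate, and the genotypes overlapped. The dim AK108560 read -0.052, 0.018 and 0.022 (mean -0.0038 ± 0.042, adjusted p = 0.950). Of the RCc2 probes left out for an outlier spot in replicate 2, AK062848 averaged -0.17 ± 0.057 and AK062911 -0.068 ± 0.061 over 3 replicates. With outlier spots kept, AK062848 was called lower (limma adjusted p = 0.0474), beside 9.85% of all probes, and AK062911 was not (adjusted p = 0.304).

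Of the 6 root-specific probes tested, AK062381 and AK063090 were called lower and 0 higher, against 10.1% of all probes called lower. The median log2 ratio was -0.46, against -0.0097 for all probes tested. By replicate the median of the 6 was -0.65, -0.66 and 0.0063. The calls of AK063684 and AK102086 turned on replicate 3. Without replicate 3, AK063684 (-2.17, adjusted p = 0.00315) and AK102086 (-0.98, adjusted p = 0.00427) were called as well, so that 4 of 6 were lower, beside 9.16% of all probes. The same 4 were called over the 6 single arrays with replicate as the random block, where 14.6% of all probes were called lower, and with a dye term added AK102086 was no longer among them. Without replicate 1 or replicate 2, limma called 0 of the 6, and 2 had an unadjusted p under 0.05 in each case; the share of all probes called lower was then 2.67% and 2.15%. The summed linear intensity of the 6 probes was 75505, 69012 and 57925 in wild type and 23086, 24127 and 60252 in *rad* in replicates 1, 2 and 3. The genotypes overlapped in this sum, which includes AK063684, saturated in wild type on 3 arrays. With the exception of AK062654, the 9 probes were well above background in both genotypes on all 6 arrays. What that signal in coleoptile material came from was not tested.

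**Figure D2:**
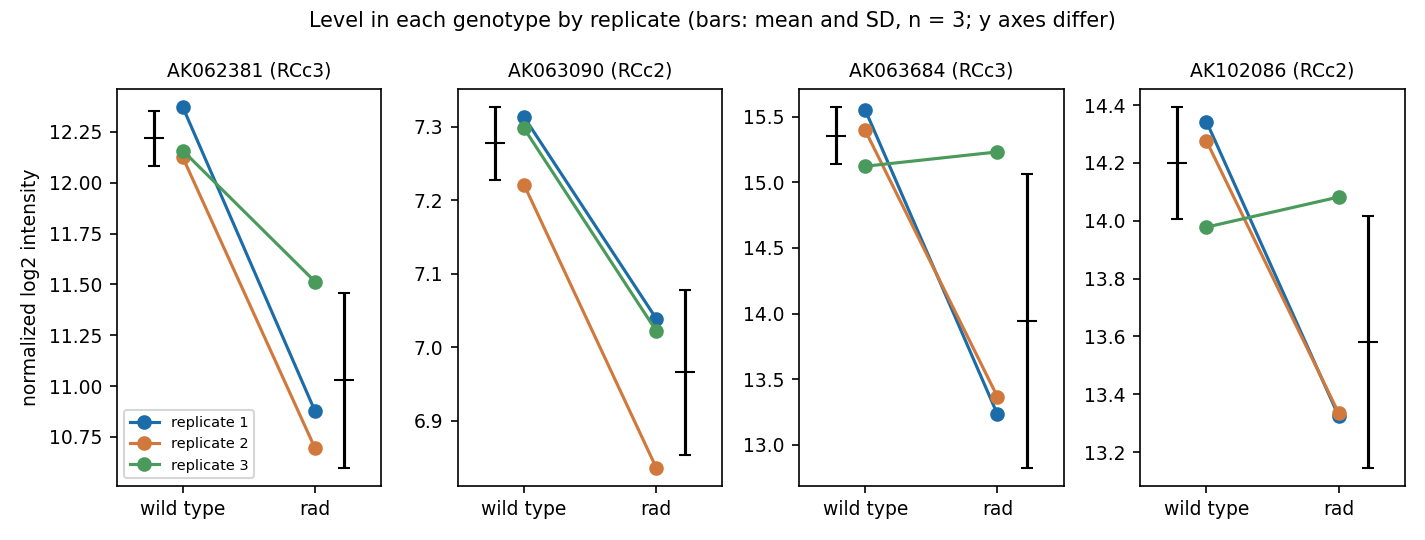
Normalized log2 intensity (y axes, which differ between panels) in wild type and *rad* for AK062381, AK063090, AK063684 and AK102086; each line joins the genotypes of 1 replicate, and bars give the mean and SD of 3 replicates. For AK062381 and AK063090 all 3 lines fall, whereas for AK063684 and AK102086 the line of replicate 3 does not.

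Over the array, the median absolute log2 ratio of all probes tested was 0.13, 0.10 and 0.092 in replicates 1, 2 and 3. The ratios correlated across genes at r = 0.885 for replicates 1 and 2. They correlated at 0.840 for replicates 2 and 3 and at 0.755 for replicates 1 and 3. For the 6 root-specific probes limma called 0 differences between the dye orientations, beside 22.1% of all probes tested, so a count of 0 among 6 says little: AK062381 read -1.16 with *rad* in Cy5 and -1.22 with *rad* in Cy3 (limma adjusted p of the dye term 0.810), and AK063090 read -0.36 and -0.26 (adjusted p = 0.245). The share of probes well above background was 90.4% to 95.7% over the channels, and precision is limited by the number of replicates.

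Other cDNAs whose description contained the word root included calls in either direction. Of 10 tested, 2 were called lower and 1 higher, beside 10.1% and 14.6% of all probes, with a median log2 ratio of -0.099. A homologue of a soybean root nodule acid phosphatase (AK100363), an enzyme that releases phosphate, fell by 0.33 (SD 0.11, limma adjusted p = 0.0208). A cDNA like a protein of iron-deficient barley roots (AK072805) fell by 0.39 (SD 0.21, adjusted p = 0.0456), and a further probe with the same description (AK109884) read -0.10 ± 0.038 and was not called (adjusted p = 0.118). A homologue of the pea BRD13 protein of root border cells (AK072835), which are shed from the root cap, rose by 0.17 ± 0.025 (adjusted p = 0.0325). The calls of AK100363 and AK072835 were lost without any 1 of the replicates (adjusted p 0.0535 to 0.109 and 0.0894 to 0.204), and that of AK072805 without replicate 1 (0.126) or replicate 2 (0.118). AK100363 and AK072805 were also not called on the arrays with *rad* in Cy5 alone (0.0572 and 0.0840), AK072805 not with the scanner's processed signals (0.0526), and AK072835 not on those with *rad* in Cy3 alone (0.108). A maize ZmRCP2-like root cap cDNA (AK108077) read 0.036 ± 0.089 and a SHORT-ROOT-like cDNA (AK070489), in Arabidopsis a regulator of root radial patterning, read -0.026 ± 0.063; neither was called (adjusted p = 0.630 and 0.691) and both were named after their values were seen. Also not called were a wheat-like root abundant protein (AK062092, -0.19 ± 0.078, adjusted p = 0.0508) and a har1-like cDNA (AK111824, -0.093 ± 0.024, adjusted p = 0.131). A root ferredoxin (AK103416) read 0.083 ± 0.19 and was not called either (adjusted p = 0.512). These too were named after their values were seen. The summed level of the 10 probes ranged from 18527 to 19288 in wild type and from 15732 to 17699.7 in *rad*.

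The cDNAs described as proline-rich or lipid transfer proteins included calls in either direction. They were listed by wording alone, and whether each carries the cysteine pattern of RCc proteins was not tested. Of 47 tested, 8 were called lower and 3 higher, beside 10.1% and 14.6% of all probes, and the median log2 ratio was -0.042. A lipid transfer protein precursor (AK072917) fell by 0.91 (SD 0.024, limma adjusted p = 0.00260) and the lipid transfer protein b21 (AK060340) fell by 0.96 (SD 0.069, adjusted p = 0.00298). An asparagus-like proline-rich protein (AK103715) fell by 0.83 (SD 0.21, adjusted p = 0.00838). A glycine and proline-rich protein like that of the grass Sporobolus (AK068289) rose by 1.26 ± 0.30 (adjusted p = 0.00721); its call was lost without replicate 1 (adjusted p = 0.0551).

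Transporters for mineral nutrients, many of which take up ions from soil in roots, included a pair of large rises. Of 52 tested, 5 were called higher and 4 lower (median -0.0040), beside 14.6% and 10.1% of all probes. A cDNA described as the phosphate transporter Pht1-2 (AK101170) rose by 2.56 ± 0.38 (limma adjusted p = 0.00397). Both other probes with that description were not called: AK101380 read -0.072 ± 0.056 (adjusted p = 0.266) and AK106694 read 0.059 ± 0.050 (adjusted p = 0.339). In addition, the potassium transporter HAK1 (AK100669) rose by 1.87 ± 0.13 (adjusted p = 0.00208). A mitochondrial phosphate carrier (AK069611), which is not an uptake transporter, rose by 0.43 ± 0.091 (adjusted p = 0.00964), a call lost without replicate 2 (adjusted p = 0.0651); AK066979, of the same description, read 0.083 ± 0.11 and was not called (adjusted p = 0.326). A tobacco-like nitrate transporter NRT1.1 (AK068409) fell by 0.51 (SD 0.17, adjusted p = 0.0160), a call lost without replicate 1 (adjusted p = 0.0940). Its ratio was -0.87 with no offset and -0.93 with the scanner's processed signals. AK070077, of the same description, read -0.83 ± 0.32 and was also called (adjusted p = 0.0191).

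Markers of the photosynthetic leaf, which the coleoptile encloses, were lower in part. Of 46 probes tested, 15 were called lower and 2 higher (median -0.10), beside 10.1% and 14.6% of all probes, with a summed level of 51273 to 52073 in wild type and 48353 to 50971 in *rad*. Those with the smallest p were 2 cDNAs of the large subunit of Rubisco, the carbon-fixing enzyme (AK062203 at -0.58 ± 0.073 and AK058516 at -0.58 ± 0.11), a Rubisco-binding chaperonin subunit of plastids (AK100602 at -0.57 ± 0.086) and the antenna protein CP26 (AK061295 at -0.37 ± 0.027), with limma adjusted p of 0.00512, 0.00673, 0.00593 and 0.00686. Of further probes with the description of AK058516, AK058623 read -0.55 ± 0.13 and was called (adjusted p = 0.00937). AK105600 read -0.14 ± 0.15 and was not called (adjusted p = 0.229). AK061410, of the same description as AK100602, read -0.78 ± 0.25 and was called (adjusted p = 0.0129). The 2 called higher were a Rubisco small subunit cDNA (AK070556, 0.49 ± 0.20, adjusted p = 0.0225) and the antenna protein CP24 (AK108672, 0.27 ± 0.14, adjusted p = 0.0486). AK068266, of the same description as AK070556, read -0.043 ± 0.0077 and AK066070, of that of AK108672, read -0.12 ± 0.26. Neither was called (adjusted p = 0.412 and 0.464). A further small subunit cDNA, AK058875, was called lower (-0.33 ± 0.14, adjusted p = 0.0307). The call of AK061295 was lost without replicate 2 (adjusted p = 0.0612), and AK100602 read -0.85 with the scanner's processed signals and -0.37 on the arrays with *rad* in Cy3. Of 13 seed storage probes limma called 0 in either direction, and 3 had an unadjusted p under 0.05, beside 7637 of all 19947 probes; their summed level was 3893 to 4006 in wild type and 3486 to 3671 in *rad*. Their part in the ratios of RCc3 and RCc2 was not tested.

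**Figure D3:**
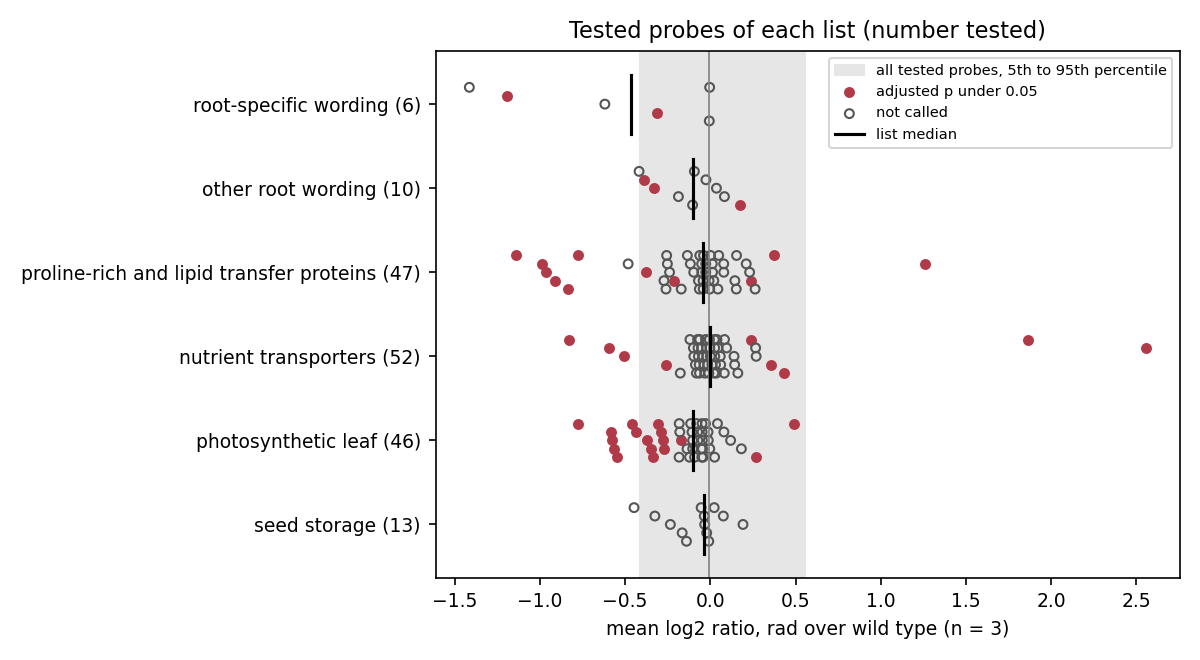
Mean log2 ratio of *rad* over wild type (x axis, n = 3) for the tested probes of 6 lists, with called probes filled, list medians as black bars, and the 5th to 95th percentile of single tested probes (-0.41 to 0.55) shaded, which is a scale for single probes and not for medians. The median of the 6 root-specific probes lies at -0.46 and the medians of the other lists lie between -0.10 and -0.0040.

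The cDNAs whose 6 array ratios were nearest to those of RCc3 AK062381, by root mean square difference, were a pectinesterase-like cDNA (AK071465, 0.16), an enoyl-CoA hydratase or isomerase (AK068152, 0.17), the aquaporin PIP2a (AK103938, 0.19), a cDNA similar to a mouse serine/threonine kinase (AK102130, 0.19) and the expansin Os-EXP-1 (AK069548, 0.20). They were taken from 8059 other tested probes with a named product. Pectinesterases modify wall pectin, aquaporins pass water through membranes and expansins loosen the wall. They were chosen on these ratios, so their calls and their order over replicates are no separate result: PIP2a AK103938 read -1.57, -1.69 and -0.48 and Os-EXP-1 AK069548 read -1.67, -1.55 and -0.83 in replicates 1, 2 and 3. The other RCc cDNAs were farther away, with AK102086 at 0.59 and AK063684 at 0.74. For RCc2 AK063090 the nearest were a Rubisco-binding chaperonin subunit (AK101334, 0.055), PibH8 (AK103061, 0.066), a TGACG-motif binding protein (AK066906, 0.079), the DNA-binding protein DF1 (AK107139, 0.080) and a wheat-like histone H2A (AK058913, 0.080). Their mean log2 ratios lay between -0.34 and -0.31, and those of PibH8 AK103061 and AK066906, like that of RCc2, were larger with the scanner's processed signals (-1.08 and -0.56).

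**Figure D4:**
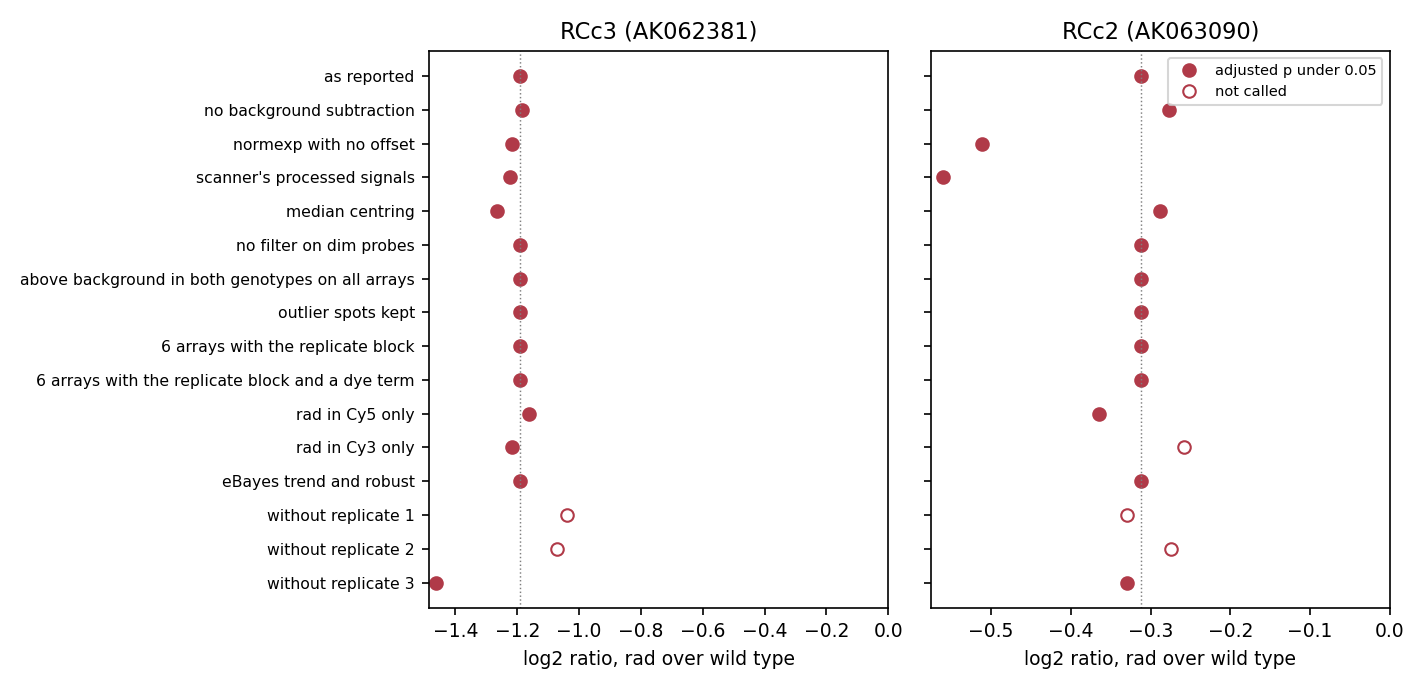
Log2 ratio of *rad* over wild type (x axes, which differ between panels and end at 0) for RCc3 AK062381 and RCc2 AK063090 as reported and under 15 other settings; filled points had a limma adjusted p under 0.05. All values are below 0, from -1.46 to -1.04 for AK062381 and from -0.56 to -0.26 for AK063090, and the open points mark the settings in which a call was lost.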

How the data were processed

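Arrays of Agilent design 012106, each with 22575 spots, had been quantified by Feature Extraction 8.5.1.1, per the file headers. The deposited mean and local background intensity values of each spot are not normalized. Other deposited columns are processed intensities, a log10 ratio of Cy5 over Cy3, and other flags of 0 or 1 per spot; the deposited value table holds the same log10 ratios turned to mutant over wild type. Normexp (offset 50) was used for the background and loess within each array, in which control spots had no weight, with limma 3.58.1 (R 4.3.3). Probes were kept when well above background in 1 genotype on at least 4 arrays and without an outlier spot, which left 19947 of 21495. Dye-swap pairs were averaged, giving 3 replicates, and an intercept was fitted (lmFit, eBayes, two-sided, Benjamini-Hochberg over all probes, threshold 0.05). The fits were tested on simulated data.

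Pairing comes from the titles: deviations of same-numbered arrays correlated across genes (r = 0.805, 0.663 and 0.840). The members and lists were chosen with earlier results of these data known. Lists were text patterns on the probe descriptions. Beside the 9 root-specific probes, the rule named for each member the 5 nearest probes with a named product, and of each list up to 4 called probes with the smallest p; the wording that decides a named product was adjusted after a first ranking was seen. The gene table matched no accession, so loci, positions and sequences are not given. All arrays shared 1 scan date and each had a slide of its own, so neither was used as a batch.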

Additional observations from a re-analysis of the deposited data

How the results depend on the processing

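Both RCc3 AK062381 and RCc2 AK063090 kept a ratio below 0 under all 15 other settings. RCc3 lost its call in 2 of them and RCc2 in 3. Leaving out 1 replicate gave -1.46 to -1.04 for RCc3 and -0.33 to -0.27 for RCc2, and the arrays with *rad* in Cy3 alone gave -0.26 for RCc2. Fitting 6 arrays with the replicate block left both ratios as they were (-1.19 and -0.31) with smaller limma adjusted p (0.000326 and 0.00177). This fit moved the number of root-specific probes called lower from 2 to 4, while that of all probes called lower went from 2009 to 2912. The number of all probes called in either direction went from 4929 to 6781. The number of root-specific probes called lower was 1 with *rad* in Cy3 alone, beside 2168 of all probes called lower. With a replicate left out it was 0 to 4, beside 429 to 1827 of all probes called lower. The number of all probes called in either direction was then 1184 to 4573, each from a fit with fewer samples. AK108560 and AK109149, which were not called, changed sign with 1 dye orientation (0.034 with *rad* in Cy5 for AK108560, 0.028 with *rad* in Cy3 for AK109149), and with a replicate left out they ran from -0.017 to 0.020 and from -0.025 to 0.011. The RCc3 minus RCc2 difference stayed between -1.13 and -0.66 in the 9 settings tried. Scan date as a block was not run because all arrays shared 1 date. Signal over background limits RCc2 AK063090, and saturation limits AK063684.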

Other observations

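Among the tested cDNAs whose description contained the word root, AK071005 was, like AK063684 and AK102086, lower in *rad* in replicates 1 and 2 and higher in replicate 3. Its log2 ratios were -0.80, -0.80 and 0.35 (mean -0.42 ± 0.66, limma adjusted p = 0.320). It is described as a putative Arabidopsis root cap protein RCP1, and whether it marks root tissue was not tested. This order of signs was not particular to root wording. The lipid transfer cDNAs AK104981 (-0.90, -0.16 and 0.24) and AK102455 (-0.89, -0.15 and 0.27) showed it too, and neither was called (limma adjusted p = 0.448 and 0.479). The share of all probes with this order was not counted. A pair of cDNAs of glutelin, the storage protein of the rice endosperm, ran the other way: AK064478 read -0.078, -0.099 and -1.16 and AK107285 read 0.11, -0.21 and -0.87 in replicates 1, 2 and 3 (adjusted p = 0.266 and 0.311). AK101299, of the same description as AK064478, did not share this and read 0.23, -0.074 and 0.079 (adjusted p = 0.467). All cDNAs of this paragraph were named after their values were seen.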
